A study of Mus musculus with 15 samples.

Results

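The sebaceous gland lipid genes were 9 genes chosen by symbol, Scd1, Scd3, Elovl3, Fa2h, Far2, Awat2, Dgat2l6, Soat1 and Mc5r, of the 18929 mouse genes in the deposited table. All 9 were present and all 9 passed the filter on low counts, which kept 15369 genes. RNA was sequenced from 15 dorsal skin samples in 5 groups of 3, and total counts per sample lay between 15840551 and 18404188. The animals were WT male balb/c mice. The age of 4 to 6 weeks is given for the mice of the wound model, and no age is given for the normal group. The acellular 10 mm and acellular 15 mm groups were round full-thickness wounds of those diameters filled with Matrigel beads that held no cells. The HDB 10 mm and HDB 15 mm groups received, among such beads, Matrigel beads laden at high density with mesenchymal stem cells (MSCs) of human umbilical cord, 56 HDBs with 84000 MSCs at 10 mm and 120 HDBs with 180000 MSCs at 15 mm. Unwounded skin served as the normal group. Sequencing is described after 4 weeks of implantation, whereas the wounds are said to have been followed to day 21. The labels do not say whether the 3 samples of a group came from separate mice, so the p-values measure the spread between these samples.

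Sebaceous glands open into the hair canal. Their cells, the sebocytes, fill with lipid droplets and then burst to release sebum, a mixture of wax esters, triglycerides, cholesterol esters and free fatty acids that coats hair and skin. Fatty acids are desaturated by the stearoyl-CoA desaturases Scd1 and Scd3, lengthened by the elongase Elovl3 and hydroxylated by Fa2h. The reductase Far2 turns fatty acyl-CoA into fatty alcohol. Awat2 joins such alcohols to fatty acids to form wax esters, Dgat2l6 is a related acyltransferase, and Soat1 esterifies cholesterol. Mc5r is a melanocortin receptor through which pituitary peptides promote sebum secretion.

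Several of these genes moved together across samples, and the promoters of a tightly matched gene (Far2), of its companion Scd3 and of a gene that followed them loosely (Soat1) are shown for reference. They are the 250 bases before the annotated start, from RefSeq on GRCm38.p6, and the table used held such a sequence for 5 of the 9 genes (Scd3, Far2, Awat2, Dgat2l6 and Soat1). Capitals mark matches, on either strand, to any of 6 motifs that were searched. These were the TATA box TATAAA, the CCAAT box, the E-box CACGTG, the nuclear receptor element AGGTCA, the sterol regulatory element TCACNCCAC and the GC box GGGCGG.
Far2, chr6:148047166-148047415, plus strand: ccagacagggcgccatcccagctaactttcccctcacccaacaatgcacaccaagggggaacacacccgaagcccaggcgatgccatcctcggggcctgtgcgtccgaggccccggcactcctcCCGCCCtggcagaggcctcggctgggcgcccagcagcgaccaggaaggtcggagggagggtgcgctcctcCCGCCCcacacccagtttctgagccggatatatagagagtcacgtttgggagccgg
Scd3, chr19:44203038-44203287, plus strand: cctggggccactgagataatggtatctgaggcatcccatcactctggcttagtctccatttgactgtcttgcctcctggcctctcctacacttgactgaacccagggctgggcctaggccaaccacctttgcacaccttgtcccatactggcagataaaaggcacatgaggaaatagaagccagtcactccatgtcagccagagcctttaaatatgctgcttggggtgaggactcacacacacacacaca
Soat1, chr1:156474329-156474578, minus strand: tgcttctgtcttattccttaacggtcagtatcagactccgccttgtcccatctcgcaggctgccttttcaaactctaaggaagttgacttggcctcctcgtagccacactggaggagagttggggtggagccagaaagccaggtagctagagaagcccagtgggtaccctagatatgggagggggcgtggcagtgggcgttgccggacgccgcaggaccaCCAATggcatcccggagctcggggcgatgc
The Far2 window held GGGCGG on the minus strand at 126 to 121 and at 56 to 51 bases before the start, a motif found in 32.7% of the 32851 promoter windows in the table. In the Soat1 window CCAAT lay 30 to 26 bases before the start, and 33.8% of all windows held it. The Scd3 and Dgat2l6 windows held no match to any of the 6, and the Awat2 windows held CCAAT in both and GGGCGG in 1. No motif was therefore common to the 5 genes, and only these letters in these windows were searched.

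In normal skin the genes spanned a wide range of levels. Set per kilobase of the longest coding transcript, the group mean in normal skin was 1058 CPM per kb for Scd1, 248 for Scd3, 207 for Fa2h, 196 for Far2 and 78.9 for Elovl3. The remaining genes were lower, at 24.3 CPM per kb for Awat2, 15.7 for Mc5r, 13.7 for Soat1 and 3.32 for Dgat2l6. CPM are TMM-normalized counts relative to library size. The acyltransferases Awat2, Dgat2l6 and Soat1 were thus measured far below both desaturases, while Far2 lay close to Scd3. Together the 9 genes took between 0.476% (normal replicate 3) and 1.89% (HDB 10 mm replicate 2) of a sample's counts over the genes tested.

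Against normal skin the estimates of all 9 genes were above 0 in both groups of 10 mm wounds, and 5 of the 9 passed the test in each. At 15 mm none passed, with log2 fold changes from -0.30 to 0.65 in acellular and from -0.20 to 0.85 in HDB skin. In acellular 10 mm skin 5 of the 9 rose, Elovl3, Fa2h, Far2, Soat1 and Mc5r, where 9.77% of all genes tested were called higher and 20.3% were called in either direction (edgeR quasi-likelihood test, adjusted p under 0.05). In HDB 10 mm skin 5 of the 9 rose as well, Elovl3, Fa2h, Far2, Soat1 and Dgat2l6, where 6.1% of all genes were called higher and 12.3% in either direction. None fell in either group. At 15 mm 0 of the 9 were called, in acellular skin (30.2% of all genes called in either direction and 17.6% higher, with 2 of the 9 at an unadjusted p under 0.05) and in HDB skin (5.18% called and 2.67% higher, with 1 of the 9 at an unadjusted p under 0.05). The median log2 fold change of the 9 genes was 1.04 in acellular 10 mm and 1.05 in HDB 10 mm skin, against medians over all genes of 0.03 and 0.02. It was 0.16 in acellular 15 mm and 0.22 in HDB 15 mm skin, beside 0.06 and 0.02 over all genes. All 4 comparisons use the same 3 normal samples. In bulk skin, a different number of sebocytes and a different amount of RNA per sebocyte cannot be told apart.

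**Figure D1:**
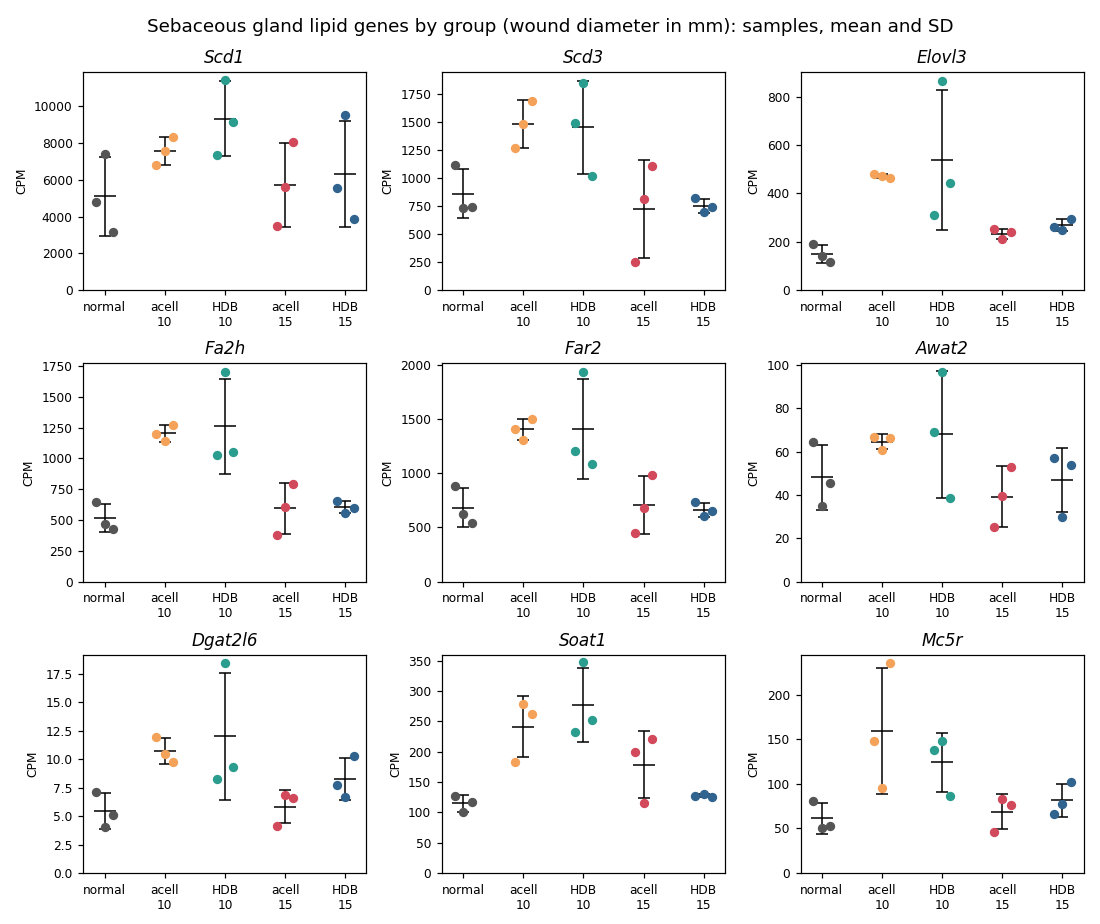
Level of each gene in CPM (vertical axes, from 0) in the 15 samples of the 5 groups, with points for samples, the long bar for the mean and capped bars for the SD (n = 3). Every sample lies above every normal sample for 7 of the 9 genes in acellular 10 mm and 6 in HDB 10 mm skin, but only for Elovl3 in each 15 mm group, and HDB 10 mm replicate 2 is the highest sample of all 15 for 8 of the 9 genes.

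Scd1 is the most abundant of these desaturases and is also made in fat. Normal skin held 4770, 7410 and 3157 CPM, acellular 10 mm skin 6809, 7579 and 8340, HDB 10 mm skin 7353, 11446 and 9157, acellular 15 mm skin 3496, 5597 and 8028, and HDB 15 mm skin 5548, 9513 and 3875. The group means ran from 5112 ± 2147 CPM in normal skin (SD, n = 3) to 9318 ± 2051 CPM in HDB 10 mm skin, and normal replicate 2 lay within the range of each of the 4 wound groups. The log2 fold change against normal was 0.57 (SE 0.42) in acellular 10 mm and 0.87 (SE 0.42) in HDB 10 mm skin, with adjusted p of 0.331 and 0.178 from edgeR. Neither passed the test, nor did those at 15 mm (0.16 and 0.30).

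Scd3, a desaturase with a narrower range of tissues that includes the sebaceous gland, lies in 1 cluster with Scd1 on chromosome 19, where the 4 genes Scd1 to Scd4 span 204 kb. Its levels were 1115, 736 and 739.9 CPM in normal skin, 1269, 1486 and 1696 in acellular 10 mm, 1494, 1850 and 1021 in HDB 10 mm, 251, 818 and 1110 in acellular 15 mm, and 822, 700.0 and 739 in HDB 15 mm skin. Every acellular 10 mm sample exceeded every normal sample, and acellular 15 mm replicate 1 was the lowest of the 15. The fold change missed the threshold in every group, with log2 values of 0.78 (SE 0.41, adjusted p = 0.179) in acellular 10 mm and 0.75 (SE 0.41, adjusted p = 0.226) in HDB 10 mm skin by edgeR. Counts of Scd1, Scd3, Elovl3 and Far2 held decimals in 15 of 15 samples, as arise when reads that match several transcripts are shared out. With which transcripts they were shared was not tested, so the levels of these 4 genes, and the division of reads between the paralogs Scd1 and Scd3, carry that uncertainty.

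Elovl3, which lengthens saturated and monounsaturated fatty acids, was higher in every wound sample than in every normal sample. Normal skin held 188, 141 and 116 CPM, and acellular 10 mm skin 479, 470.2 and 462 CPM. In HDB 10 mm skin the samples were at 309, 864 and 441 CPM, in acellular 15 mm skin at 251, 209 and 239, and in HDB 15 mm skin at 259.8, 248 and 295. The groups therefore ranked as HDB 10 mm (538 ± 290.1 CPM), acellular 10 mm (470.4 ± 8.42), HDB 15 mm (268 ± 24.4), acellular 15 mm (233 ± 21.4) and normal (148 ± 37.0; SD, n = 3 each), where the pair at 10 mm overlapped and the pair at 15 mm overlapped. Its log2 fold change against normal was 1.66 (SE 0.30, adjusted p = 0.00675) in acellular 10 mm and 1.86 (SE 0.30, adjusted p = 0.00889) in HDB 10 mm skin by edgeR, that is 3.17-fold and 3.63-fold. At 15 mm it was 0.65 (SE 0.30, adjusted p = 0.110) in acellular and 0.85 (SE 0.30, adjusted p = 0.0996) in HDB skin, and only this gene of the 9 had no overlap with normal skin there. Over all wounds against normal, Elovl3 was the only gene of the 9 without overlap, as were 9.85% of all genes in that direction.

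Fa2h, the 2-hydroxylase that supplies hydroxylated fatty acids, was measured at 649, 469.5 and 431 CPM in normal, 1198, 1141 and 1275 in acellular 10 mm, 1025, 1706 and 1048 in HDB 10 mm, 379.9, 608 and 793 in acellular 15 mm and 654, 558 and 594 in HDB 15 mm skin. All 6 samples of 10 mm wounds exceeded all normal samples, while both 15 mm groups overlapped normal skin. It rose by a log2 fold change of 1.22 (SE 0.27, adjusted p = 0.0137) in acellular 10 mm and 1.29 (SE 0.28, adjusted p = 0.0180) in HDB 10 mm skin by edgeR, and at 15 mm the values were 0.20 and 0.22.

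Far2, which makes the alcohol moiety of wax esters, followed Fa2h closely. The samples stood at 885, 621 and 538 CPM in normal, 1408, 1306 and 1501 in acellular 10 mm, 1209, 1939 and 1084 in HDB 10 mm, 447, 683 and 982 in acellular 15 mm and 734, 607 and 651 in HDB 15 mm skin. Again all 10 mm samples were above all normal samples and the 15 mm samples were not. Log2 fold changes were 1.04 (SE 0.30, adjusted p = 0.0296) in acellular 10 mm and 1.05 (SE 0.30, adjusted p = 0.0405) in HDB 10 mm skin by edgeR, with 0.05 and -0.04 at 15 mm. Over the 13 fits tried Far2 passed in 7 for acellular 10 mm and in 6 for HDB 10 mm skin. The ratio of Far2 to Fa2h CPM stayed between 1.03 and 1.36 over the 15 samples.

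The acyltransferases Awat2 and Dgat2l6 lie within 144 kb of the X chromosome. Awat2 lay at 64.3, 34.7 and 45.5 CPM in normal, 66.6, 60.8 and 66.4 in acellular 10 mm, 68.8, 96.6 and 38.3 in HDB 10 mm, 24.9, 39.3 and 53.0 in acellular 15 mm and 57.0, 29.8 and 54.0 in HDB 15 mm skin. These ranges overlapped normal skin in all 4 wound groups, and its log2 fold changes of 0.42, 0.50, -0.30 and -0.04 in acellular 10 mm, HDB 10 mm, acellular 15 mm and HDB 15 mm skin did not pass the test (edgeR adjusted p from 0.365 to 0.962). Dgat2l6, the least abundant of the 9, was found at 7.17, 4.08 and 5.10 CPM in normal, 11.99, 10.5 and 9.76 in acellular 10 mm, 8.29, 18.5 and 9.33 in HDB 10 mm, 4.14, 6.83 and 6.58 in acellular 15 mm and 7.71, 6.73 and 10.3 in HDB 15 mm skin. Its 10 mm samples all exceeded the normal samples. It rose in HDB 10 mm skin (log2 fold change 1.14, SE 0.33, edgeR adjusted p = 0.0436), and the acellular 10 mm value of 0.98 (SE 0.33, adjusted p = 0.0532) missed the threshold. Over the 13 fits tried Dgat2l6 passed in 5 for HDB 10 mm and in 2 for acellular 10 mm skin.

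Soat1, the sterol acyltransferase, varied least of the 9 within normal and within HDB 15 mm skin. Normal skin held 128, 100.3 and 117 CPM, acellular 10 mm 184, 279 and 261, HDB 10 mm 232, 347 and 253, acellular 15 mm 199, 116 and 221 and HDB 15 mm 127, 130.3 and 126 CPM. The 10 mm samples were all above normal, and 2 of the 3 acellular 15 mm samples were too. The log2 fold change was 1.07 (SE 0.24, adjusted p = 0.0128) in acellular 10 mm, 1.27 (SE 0.24, adjusted p = 0.0129) in HDB 10 mm, 0.64 (SE 0.24, adjusted p = 0.0581) in acellular 15 mm and 0.15 (SE 0.24, adjusted p = 0.715) in HDB 15 mm skin by edgeR.

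Mc5r, the receptor of the set, stood at 80.9, 50.1 and 52.6 CPM in normal, 148, 94.9 and 235 in acellular 10 mm, 138, 147 and 86.0 in HDB 10 mm, 46.4, 83.3 and 76.5 in acellular 15 mm and 65.6, 77.7 and 102 in HDB 15 mm skin. Both 10 mm groups exceeded normal skin without overlap, although acellular 10 mm skin varied 2.48-fold between its samples. It rose in acellular 10 mm skin, with a log2 fold change of 1.38 (SE 0.35, edgeR adjusted p = 0.0191), and the HDB 10 mm value of 1.02 (SE 0.34, adjusted p = 0.0683) missed the threshold. Of the other melanocortin genes 3 of 8 passed the filter. Mrap, an accessory protein of melanocortin receptors that is also made in fat, was the most abundant at 29.8 ± 18.99 CPM in normal skin (SD, n = 3), and its log2 fold change in acellular 10 mm skin was -2.68 (edgeR adjusted p = 0.0207). It did not pass in HDB 10 mm (-1.43), acellular 15 mm (-0.69) or HDB 15 mm skin (-0.04). Another of the 3 genes was called higher in acellular 15 mm skin, where 17.6% of all genes were. Pomc, the precursor of the receptor's ligands, was at or below 0.546 CPM in every sample.

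**Figure D2:**
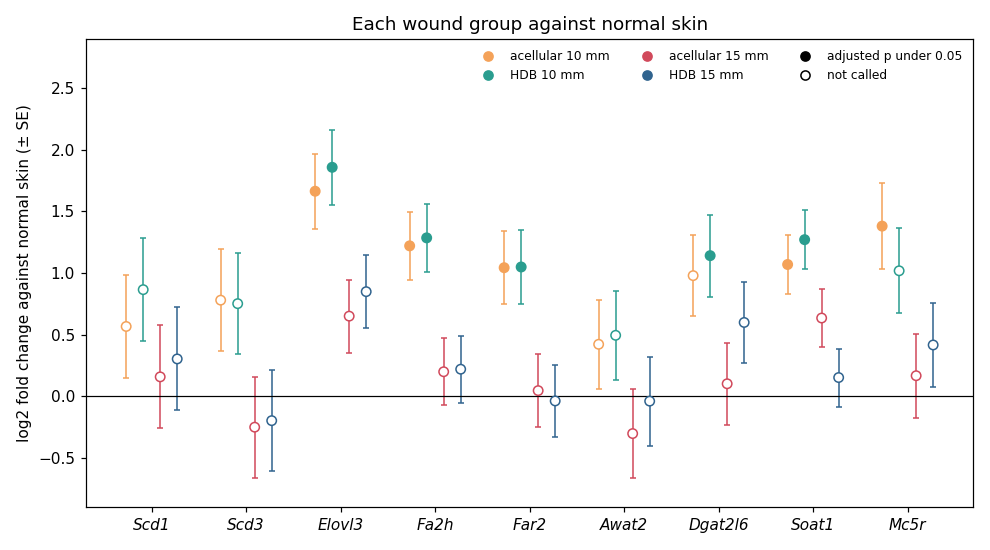
Log2 fold change of each gene against normal skin (vertical axis, points with SE bars) for the 4 wound groups. Filled points passed edgeR's test at an adjusted p under 0.05, 5 genes in each 10 mm group and 0 in each 15 mm group.

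The samples were also compared by overlap. In acellular 10 mm skin 7 of the 9 genes had every sample above every normal sample, where 29.1% of all genes did, and in HDB 10 mm skin 6 of the 9 did, against 25.7% of all genes. At 15 mm 1 of the 9 did in acellular (22.5% of all genes) and in HDB skin (23.8%). With the 4 wound groups averaged, 3 of the 9 genes rose, Elovl3 (log2 fold change 1.26), Fa2h (0.73) and Soat1 (0.78), where 14.2% of all genes were called higher and 30.9% in either direction. These calls leaned on the normal samples. Without normal replicate 2, and likewise without normal replicate 3, 1 of the 9 was called in the averaged comparison and 1 in acellular 10 mm skin, Elovl3 each time, and without acellular 15 mm replicate 1 the averaged comparison called 6. In HDB 10 mm skin the count was 0 without normal replicate 3, 2 without normal replicate 2, and 3 without normal replicate 1. Leaving out HDB 10 mm replicate 2 gave 1 there, and leaving out its replicate 3 gave 3. In acellular 10 mm skin it was 3 without acellular 10 mm replicate 1 and 3 without replicate 3. In these fits the share of all genes called was lower too, down to 0.501% in HDB 10 mm skin without normal replicate 3, except for the averaged comparison without acellular 15 mm replicate 1, where it was 40.1% against 30.9%.

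The treatment itself was addressed by setting HDB against acellular skin of the same wound size. No gene of the set passed the test at either size. At 10 mm 0 of the 9 were called, as were 0% of all genes (543 genes and 0 of the 9 had an unadjusted p under 0.05, and DESeq2 called 0 of the 9 and 0.111% of all genes), and at 15 mm 0 of the 9 were called where 2.92% of all genes were (0 of the 9 at an unadjusted p under 0.05, and 0 by DESeq2, which called 14.1% of all genes). That share of 2.92% was 0% without any 1 of the HDB 15 mm samples, with the 2 groups fitted alone or with the transcript length trend removed, and 14.9% without acellular 15 mm replicate 3, with 0 of the 9 called each time. Log2 differences at 10 mm ran from -0.36 for Mc5r to 0.30 for Scd1, and at 15 mm from -0.48 for Soat1 to 0.50 for Dgat2l6. No gene of the 9 separated the HDB from the acellular samples without overlap at either size.

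The intervals give the range of differences compatible with these samples. For Fa2h the 95% confidence interval of the HDB against acellular log2 difference was -0.52 to 0.65 at 10 mm and -0.57 to 0.61 at 15 mm. For Far2 it was -0.63 to 0.64 and -0.72 to 0.55, and for Elovl3 -0.45 to 0.83 and -0.44 to 0.84. Scd1 had wider intervals of -0.61 to 1.2 and -0.76 to 1.05. Soat1 came nearest to the threshold at 15 mm (interval -0.99 to 0.03, edgeR adjusted p = 0.240), and its treatment difference at 15 mm minus that at 10 mm was -0.68 (SE 0.33, adjusted p = 0.396). Over both sizes 0 of the 9 were called (0% of all genes, 2428 genes at an unadjusted p under 0.05 but 0 of the 9), and the treatment by size interaction called 0 as well (0% of all genes, 2064 at an unadjusted p under 0.05 but 0 of the 9). The other sebaceous and lipid gene lists also had 0 genes called in HDB against acellular skin at both sizes.

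**Figure D3:**
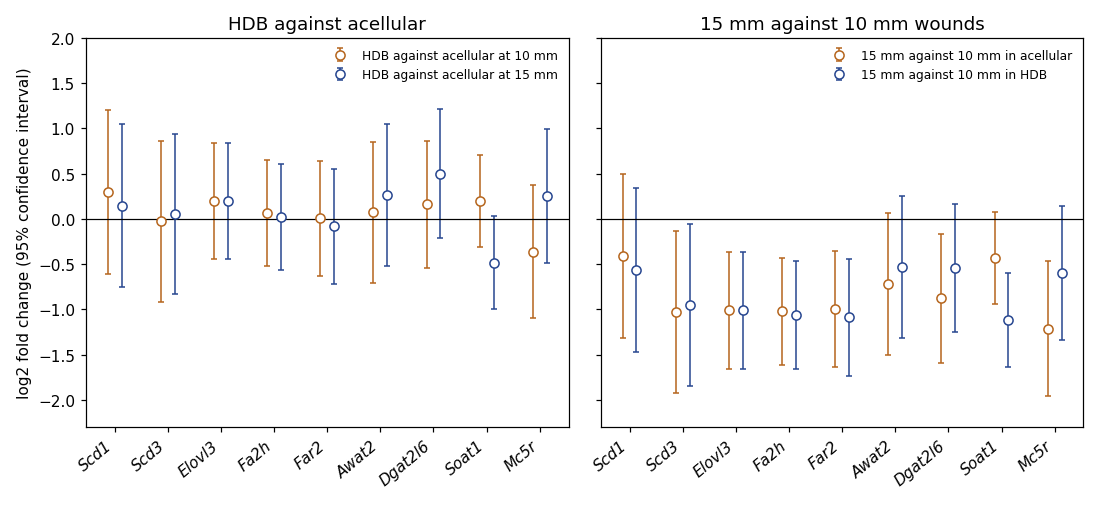
Log2 fold change with its 95% confidence interval for each gene, HDB against acellular skin (left) and 15 mm against 10 mm wounds (right). All intervals on the left include 0, and all 9 genes have estimates below 0 on the right in both treatments, none of them called by edgeR.

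Between wound sizes the estimates of all 9 genes had the same sign in both treatments. All 9 were lower at 15 mm than at 10 mm in acellular skin, by log2 differences from -0.41 (Scd1) to -1.21 (Mc5r), and in HDB skin, from -0.53 (Awat2) to -1.12 (Soat1). The medians were -0.997 and -0.949, beside 0.06 and 0.02 over all genes. In acellular skin 7 of the 9 had every 15 mm sample below every 10 mm sample, where 8.09% of all genes did, and in HDB skin 5 of the 9 did, where 11.8% of all genes did. By edgeR's adjusted p 0 of the 9 were called in either treatment (0% of all genes), with 6 of the 9 and 5 of the 9 at an unadjusted p under 0.05 beside 2683 and 1897 of all genes. DESeq2 called 4 of the 9 in each, Elovl3, Fa2h and Far2 in both, with Mc5r in acellular and Soat1 in HDB skin, all lower at 15 mm, where it called 2.77% and 2.35% of all genes lower (6.83% and 3.66% in either direction).

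Fa2h differed by -1.02 (SE 0.27, adjusted p = 0.158) between the sizes in acellular skin and by -1.07 (SE 0.27, adjusted p = 0.217) in HDB skin by edgeR, with DESeq2 adjusted p of 0.0144 and 0.0107. Over the settings tried its adjusted p lay between 0.0144 and 0.551 in acellular and between 0.0107 and 0.507 in HDB skin. Elovl3 differed by -1.01 (SE 0.30) in both. Soat1 differed by -0.43 (SE 0.24) in acellular and -1.12 (SE 0.24) in HDB skin, whereas Mc5r differed by -1.21 (SE 0.34) and -0.60 (SE 0.34), and neither difference between treatments passed the interaction test. Without acellular 15 mm replicate 3, edgeR called 2 of the 9 (Fa2h and Far2) and 3.38% of all genes in acellular skin, and without acellular 15 mm replicate 1, which stood apart in hair shaft genes, it called 0 of the 9 and 0% of all genes, and all 9 estimates stayed below 0. Wound size, the number of beads and, in HDB skin, the number of cells changed together and cannot be told apart.

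The genes did not all vary as 1 unit. After each group's mean was removed, the deviations of log2 CPM over the 15 samples correlated at a Pearson r of 0.99 between Fa2h and Far2, 0.88 between Scd3 and each of them, and between 0.62 and 0.99 over the 10 pairs among Scd3, Fa2h, Far2, Awat2 and Dgat2l6. Pairs with Scd1 ranged from -0.01 to 0.51 and pairs with Soat1 from -0.05 to 0.52. Elovl3 lay between, at 0.17 with Scd3 and 0.72 with Dgat2l6, and Mc5r reached 0.64 with Scd3. The values of 0.72 and 0.64 exceed the lowest of the 10 pairs (0.62), whose 5 genes were picked out from these same correlations. Over the 36 pairs the median was 0.52. The genes of a pair share libraries and depth, and the 15 points come from 5 groups, so the values are a description.

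**Figure D4:**
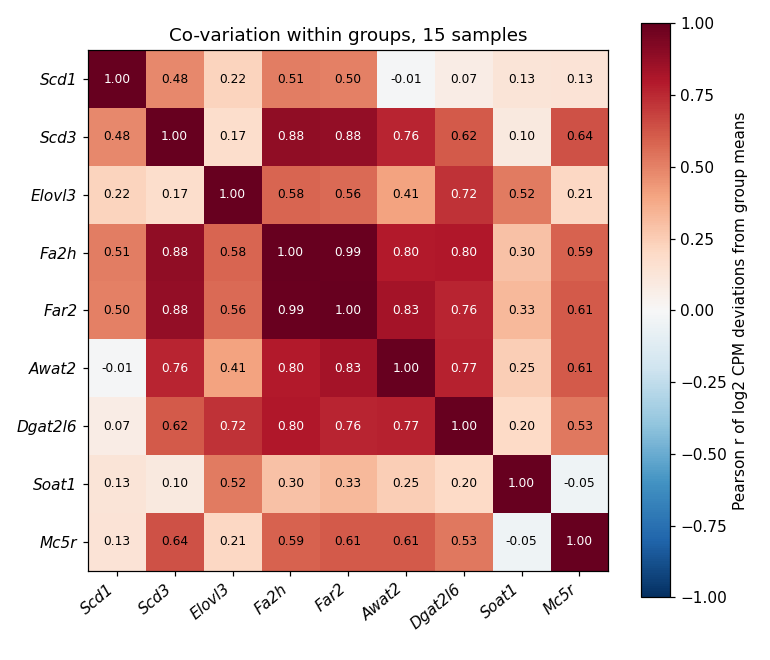
Pearson r between pairs of genes, from deviations of log2 CPM from the group mean in 15 samples, on a colour scale from -1 to 1. Scd3, Fa2h, Far2, Awat2 and Dgat2l6, picked out from these same values, lie between 0.62 and 0.99 with each other, and the Scd1 and Soat1 rows are pale. Some pairs outside these 5 genes reach that range, such as Elovl3 with Dgat2l6 (0.72) and Mc5r with Scd3 (0.64).

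Scd1 and Scd3 parted in particular samples. Their CPM ratio ran from 4.27 to 13.9. The high ratios were 13.9 in acellular 15 mm replicate 1, 13.6 in HDB 15 mm replicate 2 and 10.1 in normal replicate 2, followed by 8.97 in HDB 10 mm replicate 3. Normal replicate 2 and HDB 15 mm replicate 2 had the highest summed CPM of 9 adipocyte markers, 7371 and 6795, where the acellular 10 mm samples held 483 to 1023 and ratios of 4.92 to 5.37. What set the ratio was not tested, and the values are a description. Normal replicates 1 and 3, with sums of 3160 and 4135, had ratios of 4.28 and 4.27, the lowest of the 15. Acellular 15 mm replicate 3 and HDB 15 mm replicate 1, with sums of 4742 and 4500.2, had 7.23 and 6.75. Acellular 15 mm replicate 1 had an adipocyte sum of only 1606 but the highest sum of hair shaft and inner root sheath genes, 22850 CPM against 9.19 to 1840 in the remaining 14 samples, and the highest Scd2 level, 689 CPM. With Scd1, Scd2, Scd3 and Scd4 counted as 1 gene, the log2 fold change of this sum was 0.58 (adjusted p = 0.287) in acellular 10 mm and 0.83 (adjusted p = 0.166) in HDB 10 mm skin by edgeR, and neither passed the test.

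**Figure D5:**
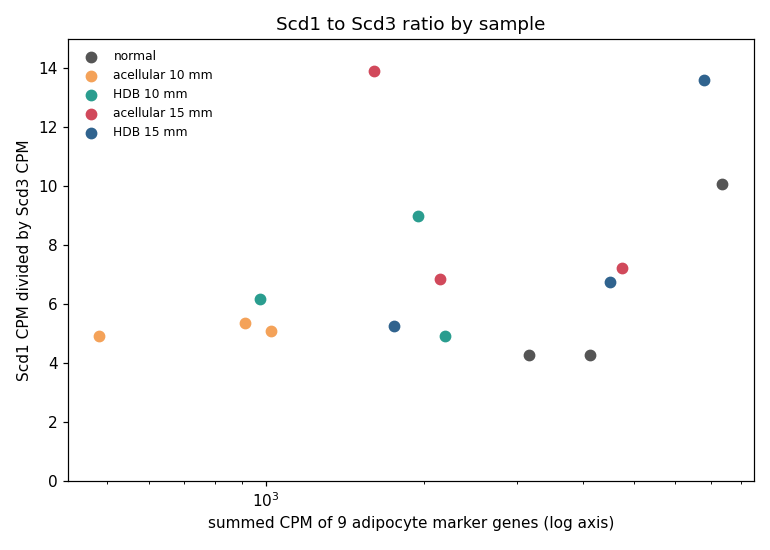
Ratio of Scd1 to Scd3 CPM (vertical axis, from 0) against the summed CPM of 9 adipocyte markers (horizontal log axis) in the 15 samples, coloured by group. Ratios above 10 belong to normal replicate 2 and HDB 15 mm replicate 2, both rich in adipocyte markers, and to acellular 15 mm replicate 1, which is not, and 4 samples with sums from 3160 to 4742 have ratios from 4.27 to 7.23.

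Other genes of the gland and of lipid synthesis were described as lists, and over all wounds 14.2% of all genes tested were called higher and 16.7% lower. Of 10 further sebocyte and duct genes, all tested, 4 rose over all wounds against normal and 0 fell, with a median log2 fold change of 0.58. The most abundant was Krt79, a keratin of the gland's duct, at 454 ± 95.02 CPM in normal and 1530 ± 164 CPM in acellular 10 mm skin (SD, n = 3), and it rose by a log2 fold change of 1.75 (SE 0.28, edgeR adjusted p = 0.00528) between these groups and of 1.26 (SE 0.23, adjusted p = 0.00383) over all wounds. The other 3 were Gata6, Lrig1 and Prdm1, regulators of duct and upper follicle cells, which were picked out after their values were seen. In acellular 10 mm, HDB 10 mm, acellular 15 mm and HDB 15 mm skin the list had 4, 3, 4 and 0 genes called higher, beside 9.77%, 6.1%, 17.6% and 2.67% of all genes. Krt79 was among them in acellular 15 mm skin (0.81, adjusted p = 0.0407), where none of the 9 lipid genes was called.

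Of 26 other fatty acid and ester synthesis genes 24 were tested, and over all wounds 5 rose and 4 fell, with a median of -0.01. In acellular 10 mm, HDB 10 mm, acellular 15 mm and HDB 15 mm skin 7, 7, 2 and 1 were called higher, beside 9.77%, 6.1%, 17.6% and 2.67% of all genes. Called lower were 4, 1, 3 and 2, beside 1624, 958, 1942 and 385 of the 15369 genes tested. Elovl4, the elongase of very long fatty acids and the most abundant, stood at 1997 ± 441 CPM in normal, 4397 ± 598 in acellular 10 mm and 4717 ± 1473 in HDB 10 mm skin (SD, n = 3). It rose by log2 fold changes of 1.14 (edgeR adjusted p = 0.0254) and 1.24 (adjusted p = 0.0278) in the 10 mm groups, with 0.16 and 0.30 at 15 mm. Elovl1 went the other way, from 103 ± 10.7 CPM in normal skin to between 57.8 and 70.3 CPM in the wound groups, and fell in all 4 groups (log2 fold change over all wounds -0.67, adjusted p = 0.00188). Paralogs of the set split as well. Awat1, close to Dgat2l6 and Awat2 on the X chromosome, rose in both 10 mm groups (1.17 and 1.18), Far1 rose in all 4 groups (0.46 to 0.56), and Scd2 passed the test in none (-0.30 to 0.89).

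Markers of other cell types were summed in the same samples. The summed CPM of 8 epidermal genes ran from 6797 to 7937 in normal, 11181 to 16419 in acellular 10 mm, 9379 to 15665 in HDB 10 mm, 5910 to 13340 in acellular 15 mm and 7386 to 13483 in HDB 15 mm skin, and over all wounds 3 of the 8 rose and 2 fell. Krt5, the most abundant of them, rose by a log2 fold change of 1.07 (edgeR adjusted p = 0.0210). The summed CPM of 6 skeletal muscle genes was 41118 to 49765 in normal skin and 516 to 29280 in the wound samples, with 1 of the 6 called lower over all wounds, a count that does not exceed the 16.7% of all genes called lower. Adipocyte genes (8 of 9 tested, Ucp1 near 0) all fell in acellular 10 mm skin, where 10.6% of all genes were called lower, and their sums were 3160 to 7371 in normal, 483 to 1023 in acellular 10 mm, 975 to 2191 in HDB 10 mm, 1606 to 4742 in acellular 15 mm and 1750 to 6795 in HDB 15 mm skin. Hair shaft and inner root sheath genes (16 of 17 tested) had 7 called higher over all wounds, among them the inner root sheath genes Tchh and Krt71. In acellular 10 mm skin 7 of the 16 were called higher and in acellular 15 mm skin all 16, beside 9.77% and 17.6% of all genes. In HDB 10 mm and HDB 15 mm skin 0 were called, beside 6.1% and 2.67% of all genes, although their median log2 fold changes were 3.73 and 8.59. HDB against acellular skin had 0 of the 16 called at either size, beside 0% and 2.92% of all genes. Sums were 9.19 to 11.3 CPM in normal and 22.2 to 22850 CPM in wound skin. The acellular 15 mm samples differed widely, at 22850, 1840 and 33.7 CPM.

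Of 9 follicle stem and outer root sheath genes 4 rose and 1 fell over all wounds, with Lgr5, a follicle stem cell receptor, at a log2 fold change of 2.56 (edgeR adjusted p = 0.00297). Among 8 macrophage genes 5 fell, including Mrc1 (-1.77), among 7 Schwann cell genes 2 fell, including Prx (-1.29), and among 6 fibroblast genes 1 fell, Dcn (-1.39), where 16.7% of all genes were called lower, a share that the fibroblast count does not exceed. Trp63, an epidermal regulator, rose (0.80), and Lep (-2.08) and Myh1 (-3.03) fell. The most abundant genes of the remaining lists were Fabp4 (-1.02), Krt15 (0.69), Lyz2 (-0.08), Pmp22 (-0.85), Col3a1 (-0.59) and Acta1 (-2.22), none of which passed the test. In acellular 10 mm skin 4 of the 6 fibroblast genes were called lower, beside 10.6% of all genes, and in HDB 10 mm skin 0 of the 6. Fibroblast sums were 7240 to 23974 CPM in normal, 3516 to 5433 in acellular 10 mm and 8947 to 11811 in HDB 10 mm skin. Between the 10 mm groups 0 of the 6 were called, beside 0% of all genes. The part of these cell types in the lipid gene differences was not tested.

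The genes most like each member over the 12 wound samples were listed by Pearson r of log2 CPM, as a description over samples that share libraries and groups. For Fa2h they were Acoxl (r = 0.99, Spearman rho = 0.99), Rdh9 (0.99, 0.97) and Mgll (0.99, 0.97), and for Far2 they included Mgll (0.99, 0.97) and Gk (0.99, 1.00). Scd3 was nearest to Cyp3a57 (0.99, 0.97), Abcc3 (0.98, 0.94) and Avpr1a (0.98, 0.94). Elovl3 was nearest to Scamp1 (0.96), Tm7sf2 (0.96) and Sdr42e1 (0.96), Awat2 to Aknad1 (0.95), Tmem159 (0.94) and Tmem86a (0.93), and Dgat2l6 to Rdh10 (0.97), Rcn1 (0.97) and Rtn3 (0.96). Soat1 had a distinct set, Hmgcs1 (0.93, 0.87), Acsf2 (0.91, 0.86) and Sqle (0.91, 0.90). Hmgcs1 and Sqle are enzymes of cholesterol synthesis. The genes nearest to Mc5r were Slc44a3 (0.90), Dnajc10 (0.89) and Cidea (0.88), a lipid droplet protein, and those nearest to Scd1 were Tgoln1 (0.95), Zbtb8b (0.94) and Adam17 (0.93).

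The mean standardised level of the 9 genes over the 12 wound samples was matched most closely by Sdr16c6, Elovl4, Pex3, Acsl5 and Aadacl2fm2 (r = 0.99 each). Over all 15 samples it was matched by Elovl4 and Acsl5 (0.99 each), Aadacl2fm2 (0.99), Gk (0.99) and Lpcat3 (0.98). Acsl5 activates fatty acids, Gk is glycerol kinase and Lpcat3 remodels phospholipids. These genes were chosen for following the 9 genes over samples that include the normal group, so their fold changes are a description. In acellular 10 mm and HDB 10 mm skin the log2 fold changes against normal were 0.95 and 0.97 for Acsl5 and 1.08 and 1.21 for Gk.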

How the data were processed

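The authors deposited 1 table of expected counts (estimated counts per gene and sample, not normalized). The submitters' processing notes name HISAT2 2.0.4, Bowtie2 2.2.5, RSEM 1.2.12 and GRCm38.p6, without role or order, while DESeq2 and FPKM appear in the study's methods. Columns were matched to samples by title, and counts were rounded to whole numbers. In R 4.3.3, a single model with 1 mean per group was fitted in edgeR 4.0.16 (TMM, filterByExpr, 15369 genes kept), contrasts were tested by quasi-likelihood, and p-values were adjusted over all genes tested by Benjamini-Hochberg, with a threshold of 0.05. Standard errors came from the test's F value. Log2 CPM used a prior count of 2. The 9 genes and all lists were chosen with earlier results of these data known. Named were the 9 genes, of each list the most abundant gene and the one with the lowest adjusted p in wounds against normal, and the nearest genes by correlation (3 per gene, 5 for the mean), besides paralogs. 1 gene that the rule named is not reported here. No 2 samples of a group agreed within counting noise. Same-number samples of the acellular 15 mm and HDB 15 mm groups deviated together (correlations of 0.397, 0.167 and 0.183), all over 0.1. No other pair of groups had this. A pairing of those 2 groups thus rests on the data alone. The main fit did not use it, so the p-values, SE and intervals given at 15 mm are unpaired. The replicate numbers entered only in the replicate block, for all 5 groups at once. Alternatives were DESeq2 1.42.0, its size factors within edgeR, no filter, a mean of at least 50 counts, only the groups compared, the replicate block, each sample left out, a minimum log2 fold change of 1, summed Scd counts and, at 15 mm, removal of a transcript length trend.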

Additional observations from a re-analysis of the deposited data

How the results depend on the processing

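With 3 samples a group, calls moved with single samples. Total counts were 15840551 to 18404188 a sample, Dgat2l6 had the fewest of the 9 (61 to 343), and a limit by depth was not tested. Counts are of the 9 genes called. DESeq2 called 5 over all wounds against normal (3 by edgeR) where it called 40% of all genes, 1 in acellular 15 mm and 1 in HDB 15 mm skin (0 by edgeR) where it called 40.2% and 18.6% of all genes, both above 1 in 9, and 4 between wound sizes in each treatment (0 by edgeR). With a minimum log2 fold change of 1 the count over all wounds was 1 (Elovl3), and the share of all genes at that minimum is not given here. The replicate block entered the numbers for all 5 groups, although only the 15 mm wound groups deviated together by number. It gave 3 in HDB 10 mm skin (5 without it), where 7.72% of all genes were called (12.3% without it). In HDB against acellular skin at 15 mm it gave 0, as without the block. With only the groups compared, 1 was called in HDB 15 mm skin, where 22.9% of all genes were (5.18% in the joint fit), and 7 in acellular 10 mm skin, where 42% were (20.3%). Leaving out 1 sample at a time gave 1 to 6 over all wounds, 1 to 5 for acellular 10 mm skin, 0 to 5 for HDB 10 mm skin, 0 to 1 for acellular 15 mm skin and 0 to 2 between sizes in acellular skin, and 0 in every such fit of HDB 15 mm against normal, HDB against acellular, the interaction and the sizes in HDB skin. The causes were not tested.

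No log2 fold change of the 9 genes in acellular 10 mm or HDB 10 mm skin against normal, or between sizes, turned its sign in any fit. Those that did were not called. Leaving out samples gave, against normal over all wounds, Awat2 -0.044 to 0.41. In acellular 15 mm skin it gave Scd1 -0.17 to 0.53, Scd3 -0.69 to 0.16, Fa2h -0.065 to 0.44, Far2 -0.27 to 0.29 and Dgat2l6 -0.072 to 0.35. In HDB 15 mm skin it gave Scd1 -0.12 to 0.67, Scd3 -0.29 to 0.041, Far2 -0.17 to 0.21 and Awat2 -0.22 to 0.24. In HDB against acellular skin at 10 mm it gave Scd3 -0.22 to 0.17, Elovl3 -0.31 to 0.50, Fa2h -0.20 to 0.22, Far2 -0.28 to 0.16, Awat2 -0.25 to 0.36, Dgat2l6 -0.27 to 0.40 and Mc5r -0.63 to 0.028. At 15 mm it gave Scd1 -0.28 to 0.47, Scd3 -0.35 to 0.50, Fa2h -0.22 to 0.29 and Far2 -0.32 to 0.23. The stricter filter moved Scd3 at 10 mm to 0.0057. With the transcript length trend removed, HDB against acellular values at 15 mm were -0.0045 for Elovl3 and -0.095 for Fa2h, and with the replicate block as well -0.0078 and -0.081. The summed counts of Scd1 to Scd4, of which Scd1 is the largest part, had values of 0.14 for acellular 15 mm against normal, 0.26 for HDB 15 mm against normal and 0.25 for the treatment difference at 10 mm, opposite in sign to Scd3 alone, on whose own sign they do not bear.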
